A study of Mus musculus with 24 samples.

Results

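The genes described here are 9 core and formative pluripotency factors, Pou5f1, Sox2, Sall4, Otx2, Fgf5, Pou3f1, Zic2, Foxd3 and Utf1, chosen by name and found by gene symbol. All 9 were present in both of the authors' deposited tables, which hold 19780 genes for control and 19979 for paused cells, with 19134 in both. Poly(A) RNA was sequenced from 24 libraries of mouse E14 embryonic stem cells, a line derived from the early embryo, cultured on gelatin in serum with leukaemia inhibitory factor. The cells were wild type (WT) or belonged to the lines labelled Smad2_KO1 and Smad2_KO2, knockouts of Smad2, a protein through which Nodal and activin receptors act on transcription. Each of these 3 genotypes was kept for 12 h in control medium or with 200 nM INK128, an inhibitor of the kinase mTOR that puts the cells into a paused state, giving 6 groups of 4 libraries. Whether each knockout line is 1 clone, and whether replicates were separate cultures, is not stated, so the p-values may measure technical spread only.

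The core factors Pou5f1 (Oct4) and Sox2 bind DNA together and keep embryonic stem cells undifferentiated, and Sall4 is a zinc finger protein of the same network. When the cells leave the naive state they pass through a formative state, in which Otx2 redirects Pou5f1 to new enhancers and genes such as Fgf5 and Pou3f1 (Oct6) are switched on. Nodal and activin signalling through Smad2 is active in the early epiblast, so the comparisons asked how the transcripts of these factors differed in the knockout, in control and in paused cells.

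The start regions of these genes are shown because they could hold the short sequences read by Smad proteins and their partners. RefSeq (build GRCm38.p6, the same assembly as the mm10 named by the submitters) gave start windows for 6 of the 9 genes, Pou5f1, Sox2, Otx2, Fgf5, Foxd3 and Utf1, with 10 annotated starts. The 3 without a window in the set of starts used here were Sall4, Pou3f1 and Zic2. Of the 250 bases before a start, the stretch outside every GENCODE M21 exon of the gene is printed for the first listed start of 4 genes, 5′ to 3′ on the gene's strand. Fgf5 (chr5:98253934-98254183, plus strand), Utf1 (chr7:139943606-139943788, plus strand) and Pou5f1 (chr17:35505782-35506017, plus strand) stand for the members with lower values in the knockout. Otx2 (chr14:48667645-48667894, minus strand) is printed as well. Its log2 change was 0.47 (standard error 0.17) in paused cells but 0.070 (0.20) in control cells. Otx2 therefore does not stand for the members with higher values. The Foxd3 window is not printed, although Foxd3 had higher values in both conditions, 0.30 (0.14) in control and 0.24 (0.10) in paused cells. Capitals mark matches to a Smad box, CAGAC, or to the FOXH1 motif, TGTNNATT, on either strand.
Fgf5: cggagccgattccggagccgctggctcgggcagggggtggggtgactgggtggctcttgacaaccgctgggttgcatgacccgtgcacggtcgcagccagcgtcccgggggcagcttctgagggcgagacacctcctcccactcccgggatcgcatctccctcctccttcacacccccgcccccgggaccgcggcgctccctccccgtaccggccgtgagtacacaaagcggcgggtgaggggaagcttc
Utf1: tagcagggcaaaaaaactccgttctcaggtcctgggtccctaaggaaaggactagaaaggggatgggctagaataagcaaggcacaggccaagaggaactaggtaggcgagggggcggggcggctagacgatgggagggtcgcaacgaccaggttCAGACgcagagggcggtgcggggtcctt
Pou5f1: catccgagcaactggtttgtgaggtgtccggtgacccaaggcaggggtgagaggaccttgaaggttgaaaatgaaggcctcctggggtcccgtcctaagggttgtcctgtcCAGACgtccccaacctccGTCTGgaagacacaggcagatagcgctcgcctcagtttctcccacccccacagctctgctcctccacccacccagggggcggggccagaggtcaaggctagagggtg
Otx2: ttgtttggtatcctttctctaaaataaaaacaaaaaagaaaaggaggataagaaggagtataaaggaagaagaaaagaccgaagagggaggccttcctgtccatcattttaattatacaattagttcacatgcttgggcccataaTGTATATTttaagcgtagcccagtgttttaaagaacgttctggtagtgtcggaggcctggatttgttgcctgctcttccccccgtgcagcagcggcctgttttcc

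The Fgf5 window held neither motif. The Utf1 window held 1 Smad box, and the printed Pou5f1 window held 2, 1 on each strand. The window of the second Pou5f1 start, not printed, held 1 more, from 14 to 10 bases before that start. In all, 42.2% of the 32851 mouse windows of this length held at least 1 Smad box, so these matches are common. The FOXH1 motif, found in 10.9% of all windows, was matched once in the Otx2 window printed above and in the overlapping window of the second Otx2 start, where it is the same site. Sox2 and Foxd3 had neither motif in their windows. The octamer read by Pou5f1, ATGCAAAT, was in none of the 10 windows and in 1.60% of all. The windows of Fgf5, Sox2 and Foxd3 were rich in GC, at 70.8%, 72.0% and 65.6%, against a median of 52.4% over all windows, and the first Otx2 window had 42.0%.

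The genes lie on 7 chromosomes in GENCODE M21 on GRCm38, and all are protein coding. Pou5f1 (ENSMUSG00000024406.16) is on chromosome 17 from 35506018 to 35510772, with 6 blocks of exon. Sox2, at 34650405 to 34652461 on chromosome 3, Pou3f1, at 124656807 to 124660655 on chromosome 4, and Foxd3, at 99656299 to 99658622 on chromosome 4, each consist of 1 exon. Fgf5 spans 98254184 to 98277030 on chromosome 5, Utf1 139943789 to 139945112 on chromosome 7, and Sall4 168748332 to 168767943 on chromosome 2. Otx2, from 48657677 to 48673819, and Zic2, from 122475435 to 122479852, are both on chromosome 14.

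The tables hold a mean, a log2 change, its standard error (SE) and a p-value per gene, and no value for a single library, so no level per sample can be shown and the depth of the libraries is unknown. The means are normalized read counts averaged by the authors. The 2 knockout lines cannot be told apart in these values. Because the tables do not name the numerator, changes are read as knockout over wild type from the targeted gene: Smad2 was at 78.6% of wild type in the authors' deposited table of control cells (log2 change -0.35, SE 0.070) and at 64.6% in that of paused cells (-0.63, SE 0.057). Much of the Smad2 transcript was thus still counted in the knockout, no protein was measured here, and which part of the gene was altered is not given in the sources used here, so these values do not show how complete the loss is. If the numerator were the wild type, all directions given here would be opposite. A gene is called when its adjusted p is under 0.05, from the authors' DESeq2 test with Benjamini-Hochberg adjustment over all genes of a table.

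The 9 genes covered a wide range of levels. Per kilobase of exon, the mean level in the authors' deposited table of control cells was highest for Pou5f1, at 23002 normalized counts per kb, followed by Sox2 at 11678, Utf1 at 10510 and Sall4 at 5026. Pou5f1 had the 66th highest mean count of any gene in the authors' deposited table of control cells and the 82nd highest in that of paused cells. Zic2 (941), Foxd3 (903), Pou3f1 (368) and Otx2 (316) lay lower in the authors' deposited table of control cells, and Fgf5 was lowest at 43.7 normalized counts per kb. The labelled cell type was checked against its defining factors: Pou5f1 and Sox2 were above 98.6% of genes in mean count in both of the authors' deposited tables.

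The order was nearly the same in paused cells. Per kilobase, Pou5f1 had 19617, Sox2 12228, Utf1 9671, Sall4 5320 and Zic2 986 normalized counts in the authors' deposited table of paused cells. Foxd3 was at 441, Otx2 at 372, Pou3f1 at 331 and Fgf5 at 25.2 normalized counts per kb in the same deposited table, so that Otx2 and Pou3f1 changed places. As a share of all summed counts, the paused mean of Foxd3 was 50.7% of its control mean and that of Fgf5 60.0%, whereas the other 7 genes lay between 88.7% and 122%. These means pool the genotypes and have no error, so the effect of INK128 was not tested, and which neighbours in the order differ beyond their spread cannot be said. In the knockout Pou3f1 was at 35.6% of wild type in control and 26.5% in paused cells, by the authors' deposited tables. Otx2 was at 105% and 139% in the same deposited tables, so the order of this pair may differ in wild-type cells.

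**Figure D1:**
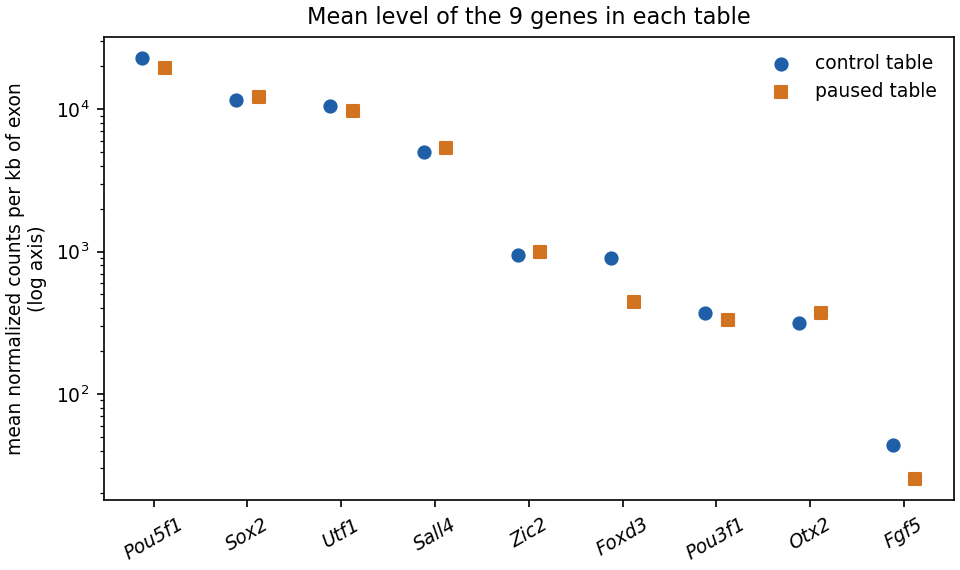
Mean normalized counts per kilobase of exon (log axis) for each of the 9 genes in the control table (circles) and the paused table (squares), pooled over genotypes and without error bars because no value per library exists. Pou5f1 is highest in both, Fgf5 lowest, and Foxd3 is at 903 for control and 441 for paused cells, a difference that was not tested.

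In control cells, 4 of the 9 genes were called lower and 2 higher in the knockout. The formative markers Fgf5 and Pou3f1 fell far, and the abundant factors Utf1 and Pou5f1 fell slightly, while Sall4 and Zic2 rose. Sox2, Otx2 and Foxd3 were not called. The background was wide: 41.4% of all genes tested were called in the authors' deposited table of control cells, 19.5% as higher and 21.9% as lower. With equal summed counts in both genotypes, the share of calls that were higher went from 47.1% to 60.5%.

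In paused cells 7 of the 9 genes were called, 4 higher and 3 lower. Fgf5, Pou3f1 and Utf1 fell again and Sall4 and Zic2 rose again. Otx2 and Foxd3 passed the threshold as higher, and Pou5f1 and Sox2 were not called. Over all genes 42.6% were called in the authors' deposited table of paused cells, 20.5% as higher and 22.0% as lower. The share of paused calls that were higher went from 48.2% to 57.6% with equal summed counts. Among genes with at least 5 counts per 1000000 of the summed means it was 36.8% in control and 38.1% in paused cells. In both tables together 5 of the 9 genes were called the same way, 3 lower and 2 higher, against 30.3% of all genes in both tables.

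**Figure D2:**
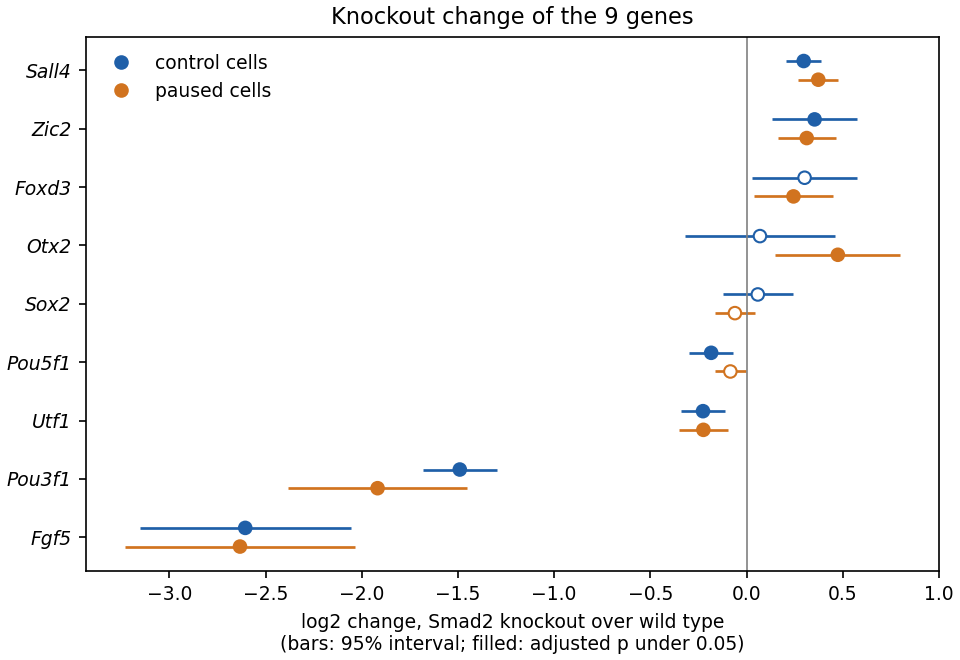
Log2 change of each gene in the Smad2 knockout over wild type in control (blue) and paused (orange) cells, with 95% intervals from the deposited standard errors. Filled points have an adjusted p under 0.05. Fgf5 and Pou3f1 lie far to the left in both conditions, and the other 7 genes lie between -0.23 and 0.47.

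Fgf5, a secreted growth factor that marks the epiblast after implantation, fell most. Its log2 change was -2.61 in the authors' deposited table of control cells (SE 0.28, adjusted p 7.88e-19), which is 6.09-fold lower with a 95% interval of 4.16 to 8.90. In the authors' deposited table of paused cells it was -2.63 (SE 0.31, adjusted p 2.84e-16), or 6.20-fold lower with an interval of 4.09 to 9.40. Only 51 genes had a more negative change than Fgf5 in the authors' deposited table of control cells and 61 in that of paused cells. Its mean counts, 109 and 63.1, were the smallest of the 9 genes in the authors' deposited tables.

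Pou3f1, a POU-domain transcription factor related to Pou5f1, fell 2.81-fold in the authors' deposited table of control cells (log2 change -1.49, SE 0.098, adjusted p 5.78e-50, interval 2.46-fold to 3.21-fold). The fall was 3.78-fold in the authors' deposited table of paused cells (-1.92, SE 0.24, adjusted p 1.51e-14, interval 2.74-fold to 5.21-fold). Pou3f1 differed from Fgf5 in level, with mean counts of 1418 and 1275 in the authors' deposited tables. A gene on the opposite strand, Gm2164, overlaps Pou3f1 and was also lower in the authors' deposited tables (-0.93, SE 0.27 in control and -1.28, SE 0.31 in paused cells). Whether strand was used in counting is not given in the sources used here, so reads of the pair cannot be told apart. The mean counts of Gm2164 were far lower, at 45.0 and 33.9 in the authors' deposited tables.

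Utf1, a chromatin-bound factor of undifferentiated cells, had almost the same change in both conditions. It was at 85.5% of wild type in the authors' deposited table of control cells (-0.23, SE 0.059, adjusted p 6.77e-04) and at 85.6% in that of paused cells (-0.22, SE 0.066, adjusted p 0.00251). Pou5f1 fell to 88.0% of wild type in the authors' deposited table of control cells (-0.18, SE 0.059, adjusted p 0.0063). In paused cells the value of Pou5f1 in the authors' deposited table was 94.3% of wild type and was not called (-0.084, SE 0.042, adjusted p 0.0924). The control call of Pou5f1 was lost with equal summed counts, where its change was -0.13.

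Sall4 was the core factor that rose. It was 1.23-fold higher in the authors' deposited table of control cells (0.30, SE 0.046, adjusted p 1.77e-09, interval 1.15 to 1.31) and 1.29-fold higher in that of paused cells (0.37, SE 0.053, adjusted p 3.31e-11, interval 1.21 to 1.39). Gm14261, on the opposite strand of Sall4, was not called in either of the authors' deposited tables (0.13, SE 0.16 and 0.25, SE 0.13).

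Sox2 was not called in either condition. Its log2 change was 0.058 (SE 0.093, adjusted p 0.653) in the authors' deposited table of control cells and -0.061 (SE 0.053, adjusted p 0.371) in that of paused cells. The 95% intervals of the ratio to wild type ran from 0.917 to 1.18 in control and from 0.893 to 1.03 in paused cells, by the authors' deposited tables. The long noncoding Sox2ot, within which Sox2 lies on the same strand, rose in the authors' deposited tables by 0.49 (SE 0.15, adjusted p 0.00475) in control and 0.30 (SE 0.13, adjusted p 0.0422) in paused cells. Its mean counts, 109 and 260, were far under those of Sox2 in the authors' deposited tables, 24021 and 25153.

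Zic2, a zinc finger factor of the epiblast and later of neural tissue, rose 1.28-fold in the authors' deposited table of control cells (0.35, SE 0.11, adjusted p 0.00602) and 1.24-fold in that of paused cells (0.31, SE 0.077, adjusted p 2.61e-04). Foxd3, a forkhead factor needed by epiblast cells, had values of the same size with wider errors. It was 1.23-fold higher without a call in the authors' deposited table of control cells (0.30, SE 0.14, adjusted p 0.0664) and rose 1.18-fold in that of paused cells (0.24, SE 0.10, adjusted p 0.0447). The calls on either side of the threshold for Foxd3 came with a difference between the conditions of -0.058 (SE 0.17). With equal summed counts Foxd3 was called in control cells as well, at 0.36. At an adjusted p under 0.01 Foxd3 was called in neither condition.

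Otx2, the homeobox factor of the formative state, had wide errors. Its log2 change was 0.070 (SE 0.20, adjusted p 0.812) in the authors' deposited table of control cells and 0.47 (SE 0.17, adjusted p 0.0125) in that of paused cells, a 1.39-fold rise with an interval of 1.11 to 1.74. The median standard errors over all genes of the authors' deposited tables were 0.11 and 0.10, and among the 9 genes Fgf5 in both conditions and Pou3f1 in paused cells had larger errors than Otx2. The control ratio to wild type of Otx2 had an interval of 0.802 to 1.37 in the authors' deposited table, which includes lower and higher values, whereas the intervals of Fgf5 and Pou3f1 lay wholly below wild type in both conditions.

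Whether the knockout change differed between conditions was tested per gene, as the paused change minus the control change over the combined standard error, with Benjamini-Hochberg adjustment over all 19134 genes. None of the 9 genes passed (0 of 9), where 1.44% of all genes did. At an unadjusted p under 0.05 of this test it was 0 of 9 as well, against 12.9% of all genes. The largest differences were those of Pou3f1, -0.43 (95% interval -0.93 to 0.074, adjusted p 0.496), and Otx2, 0.40 (-0.10 to 0.91, adjusted p 0.541). The difference of Fgf5 was -0.027 with an interval of -0.84 to 0.79. Narrower intervals were found for Utf1, from -0.17 to 0.18, Sall4, from -0.061 to 0.21, and Pou5f1, from -0.042 to 0.24. For Sox2, Zic2 and Foxd3 the differences were -0.12, -0.041 and -0.058, with intervals that also included 0.

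**Figure D3:**
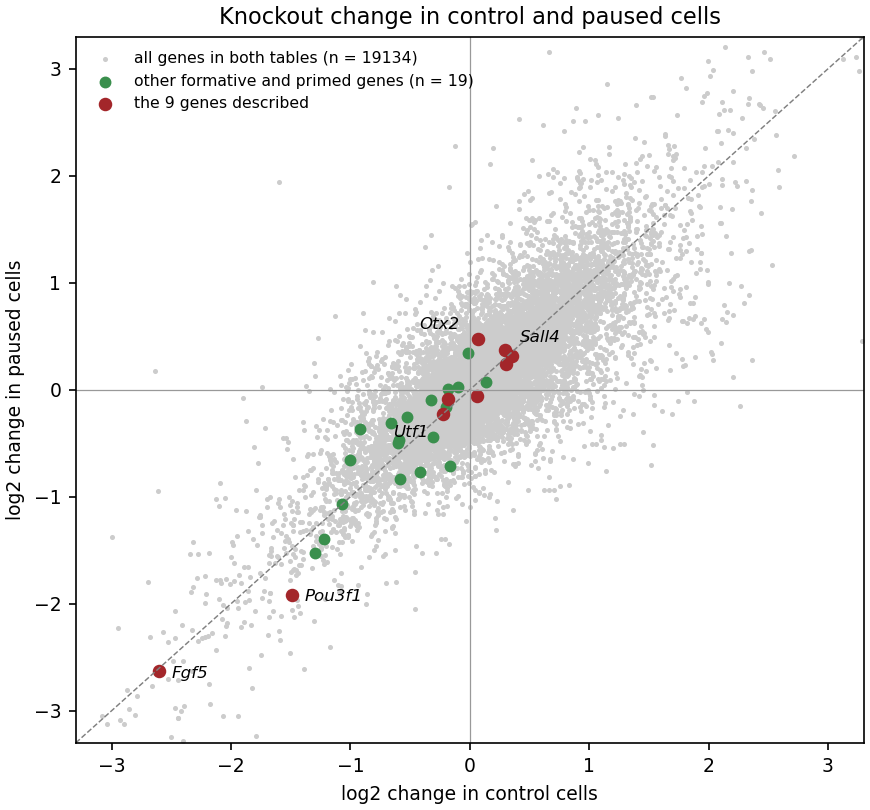
Log2 change in paused against control cells for the 19134 genes in both tables (grey), the 19 other formative and primed genes (green) and the 9 genes described (red). The dashed line marks equal changes, 59 genes lie outside the axes, and Fgf5 and Pou3f1 lie at the lower left near the line.

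The breadth of calls bears on the small changes. The median absolute statistic of all genes was 2.76 times in control and 2.80 times in paused cells that of a standard normal. With the statistic divided by these factors, 1 of the 9 genes was called in control cells, Pou3f1, and 0 in paused cells, against 1.48% and 2.25% of all genes. At an unadjusted p under 0.05 on that scale of the DESeq2 statistic there were 3 of 9 in each table, Sall4, Fgf5 and Pou3f1, against 9.4% of all genes in control and 10.5% in paused cells. When only changes beyond 1.2-fold were tested for, Fgf5 and Pou3f1 were called in both tables and the other 7 genes in neither, against 10.6% of all genes in each table.

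The genes whose pairs of changes were nearest to those of Otx2 and Fgf5 were looked up over the 10484 genes whose mean was 5 ppm or more in both tables, where ppm is a gene's count per 1000000 of the summed mean counts. Likeness was the Euclidean distance between the pairs of log2 changes, over 2 conditions only. For Otx2 they were Igdcc3, H1f0 and Nmnat2, at distances of 0.007 to 0.018. For Fgf5 they were Sema6a (control -2.79 and paused -2.86 in the authors' deposited tables), Cnn1 (-2.47 and -2.32) and Fndc3c1 (-2.42 and -3.01), at distances of 0.29 to 0.42. The distances for Otx2 were far under the SE of its own changes, 0.20 in control and 0.17 in paused cells, so which genes are nearest is not resolved. Fgf5 itself, at 2.37 ppm in control and 1.42 ppm in paused cells, lay under the minimum, so genes at its level were not searched.

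Other genes of the formative and primed epiblast were mostly lower. Of 19 listed, 14 were called lower and 0 higher in the authors' deposited table of control cells by DESeq2, at a median of -0.53, against 0.000847 over all genes. In the authors' deposited table of paused cells 13 were called lower and 1 higher, at a median of -0.45, against -0.0016 over all genes. Of all genes 21.9% were called lower in control and 22.0% in paused cells. The largest falls in the authors' deposited table of control cells were those of Cdh2 (-1.30, SE 0.15), the neural cadherin, Sox11 (-1.22, SE 0.12), a SoxC factor, Pim2 (-1.07, SE 0.14), a kinase, and Lin28b (-0.999, SE 0.067), an RNA-binding protein that blocks let-7. In the authors' deposited table of paused cells they were those of Cdh2 (-1.53, SE 0.25), Sox11 (-1.40, SE 0.23), Pim2 (-1.07, SE 0.17) and Foxp1 (-0.83, SE 0.066). The gene called higher in the authors' deposited table of paused cells was the DNA methyltransferase Dnmt3a (0.34, SE 0.071), named after its value was seen. Where most of this list had lower values, Zic2 was called higher in both conditions, and Otx2 and Foxd3 in paused cells only.

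Family relatives of the 9 genes were called in both directions. Of 14 listed, 4 of which are also in the previous list, 4 were called higher and 3 lower in the authors' deposited table of control cells, and 3 and 4 in that of paused cells. That is 50.0% in each, near the 41.4% and 42.6% of all genes. Going by the authors' deposited tables, Sall2 fell by 0.92 (SE 0.14) in control and by 0.37 (SE 0.13) in paused cells, while its relative Sall4 rose. Fgf4, the growth factor that drives exit from the naive state, rose by 0.50 (SE 0.065) and 0.48 (SE 0.063) in the authors' deposited tables, while Fgf5 fell. Fgf8, another relative, fell as well, with log2 changes of -2.13 (SE 0.35) and -2.44 (SE 0.40) in the authors' deposited tables, at mean counts of 32.8 and 21.0.

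Partners and cofactors of the core factors were also called in both directions. Of 20 listed, 4 were called higher and 2 lower in the authors' deposited table of control cells (median -0.019), and 5 higher and 4 lower in that of paused cells (median 0.0091). These calls are 30% and 45% of the list, against 41.4% and 42.6% of all genes. Dppa2, a chromatin protein of early embryos, rose most, by 0.34 (SE 0.061) and 0.49 (SE 0.065) in the authors' deposited tables. L1td1 fell by 0.27 (SE 0.071) in control cells and Nr0b1, an orphan nuclear receptor, by 0.38 (SE 0.072) in paused cells, from the authors' deposited tables. Regulators of exit from the naive state gave 3 of 9 called higher and 0 lower in the authors' deposited table of control cells by DESeq2, and 4 higher and 1 lower in that of paused cells. Among them Tcf7l1, a repressor of naive genes, rose by 0.31 (SE 0.072) and 0.24 (SE 0.063), and Rbpj, the Notch effector, by 0.27 (SE 0.061) and 0.28 (SE 0.034) in the authors' deposited tables. Of 12 naive pluripotency genes, 4 were called higher and 1 lower in the authors' deposited table of control cells, and 3 and 1 in that of paused cells. Tbx3, a T-box factor, rose most of these, by 1.00 (SE 0.065) and 0.79 (SE 0.051) in the authors' deposited tables. The shares called were 33.3% and 55.6% for the exit regulators and 41.7% and 33.3% for the naive genes, which lie around the 41.4% and 42.6% of all genes.

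**Figure D4:**
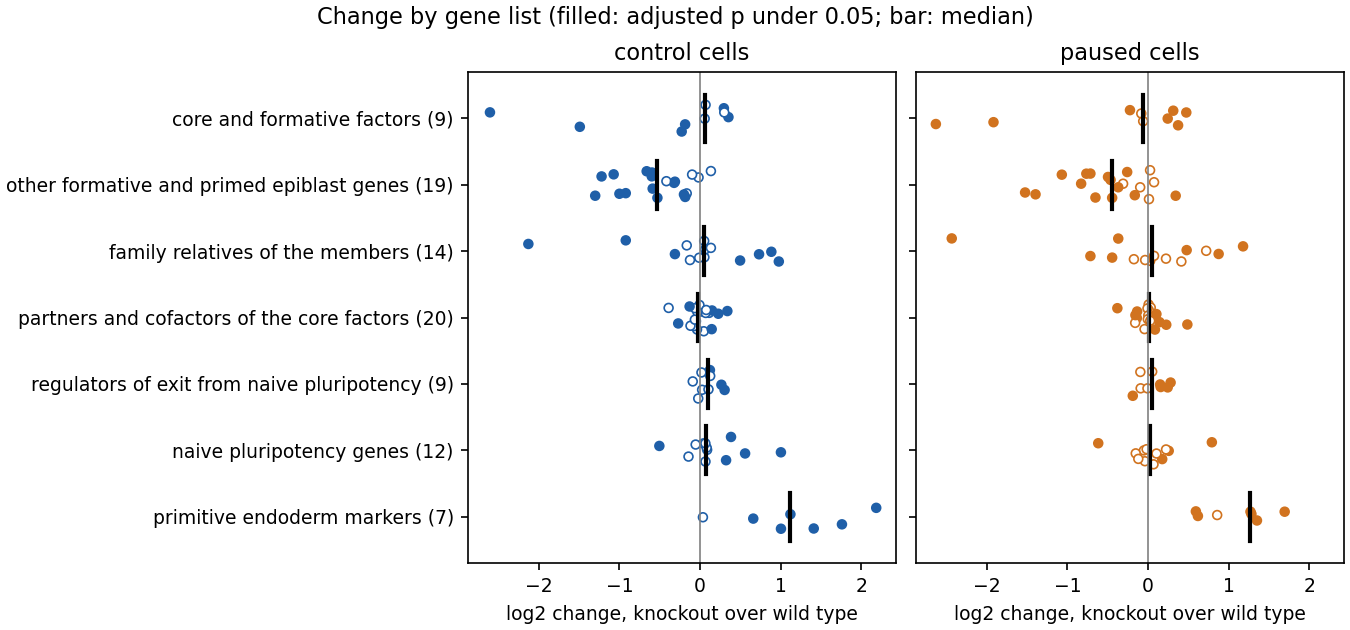
Log2 change of every gene of 7 lists in control (left) and paused (right) cells, with filled points for an adjusted p under 0.05 and a bar at the median. The 19 other formative and primed genes centre at -0.53 and -0.45, and the 7 primitive endoderm markers centre at 1.12 and 1.27.

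Markers of other cell types were counted against the 41.4% and 42.6% of all genes called. All 7 primitive endoderm markers had higher values in the knockout in the authors' deposited tables, 6 of them called in each condition, at a summed mean level of 22.3 ppm in control and 40.7 ppm in paused cells. Of 7 trophoblast markers 2 were called higher and 1 lower in each of the authors' deposited tables, a share of 42.9% that is near that of all genes, with summed levels of 370 and 440 ppm. Mesendoderm markers summed to 16.2 and 14.7 ppm in the authors' deposited tables, with 3 of 5 called lower and 1 higher in control cells, 2 called lower in paused cells, and Mesp1 not listed. Neuroectoderm markers summed to 183 and 98.9 ppm in the authors' deposited tables, with 2 of 5 called lower and 1 higher in each and Olig2 not listed. Fibroblast markers summed to 16.9 and 17.2 ppm in the authors' deposited tables, with 3 of 5 called lower in control and 2 of 4 in paused cells and Lum, and in paused cells Dcn, not listed. All 4 markers of the rare state that resembles the embryo at the 2-cell stage were called higher in each of the authors' deposited tables, with summed levels of 783 ppm in control and 288 ppm in paused cells. The trophoblast markers were split in the authors' deposited tables: Hand1 rose, with log2 changes of 1.95 (SE 0.18) and 2.69 (SE 0.26), as did Gata3, while Cdx2 fell, with -0.84 (SE 0.22) and -0.92 (SE 0.35), and Elf5, Tfap2c, Krt8 and Krt18 were not called. The mesoderm factor T fell, with -4.66 (SE 0.48) and -3.86 (SE 0.43), and Nes, an intermediate filament of neural progenitors, with -1.74 (SE 0.16) and -2.48 (SE 0.30), in the same deposited tables. On the same neuroectoderm list Pax6 also fell, and Tubb3 and Hes5 were not called. Sox1 of that list rose, with 0.98 (SE 0.16) and 1.18 (SE 0.24) in the authors' deposited tables. For comparison the 9 genes described summed to 2695 and 2649 ppm in the authors' deposited tables. The part of these cells in the changes was not tested, and in bulk samples fewer cells of a type and less RNA per cell cannot be told apart.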

How the data were processed

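Poly(A) RNA of 24 libraries was measured, 12 per condition. Per the submitters' processing notes, the authors used FastQC, Trim Galore, HISAT2, featureCounts and DESeq2 with build mm10. How the knockout lines were combined and how strand was used are not given in the sources used here.

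The authors deposited 2 DESeq2 results tables. Per the file headers they hold a mean of normalized counts, a signal averaged over libraries by the authors, and a log2 change with its standard error. A score, the test statistic, and a p-value before and after adjustment complete the deposited columns. The statistic equalled the change over its standard error, within a relative tolerance of 0.001 (absolute for statistics under 1), for all genes with a p-value, and the adjustment was recomputed to within 1%. The tables were normalized separately. The depth per library is unknown, so the standard errors are the only measure of precision given. They may not include the spread between cultures or between knockout lines.

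The difference between conditions used a two-sided normal p, and 95% intervals are the change with its standard error on a normal scale. In simulated data for 19134 genes, with their deposited standard errors, it recovered 70.0% of 200 genes given a 2-fold difference, and 4.76% of its calls were false. The simulated noise had the size of those standard errors, whereas the median size of the real statistic was 1.23 times that of a standard normal. The 4.76% therefore does not describe the real calls. Exon lengths came from GENCODE M21. Motifs were searched as letters on both strands over 250 bases before each RefSeq start. Of the 8 searched, the SOX, OTX, TCF/LEF, GC box and TATA box motifs are not described. Python 3.11.15, numpy 2.4.6, scipy 1.17.1 and pandas 2.3.3 were used.

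The 9 genes and all lists were chosen with earlier results of these data known. Named genes were the 9, Smad2, genes overlapping the 9, the 3 nearest to Otx2 and to Fgf5, and, without naming all of them, per list and table at most 4 called genes with the largest change and a mean count of 5 ppm or more (230 and 221 normalized counts). Dnmt3a, Fgf8, Cdx2, Elf5, Tfap2c, Krt8, Krt18, Sox1, Tubb3 and Hes5 were named outside this rule, after their values were seen.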

Additional observations from a re-analysis of the deposited data

Results flagged for a closer look

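The knockout change differed between paused and control cells, by the test of the difference over all genes, for 3 of the 110 genes of all lists, or 2.73%, against 1.44% of all genes. None of the 3 passed at an adjusted p under 0.01 or after division of the statistic by 1.23, its median size relative to a standard normal. Lin28b of the formative list differed by 0.35 (SE 0.091, adjusted p 0.017), with changes of -0.999 in control and -0.65 in paused cells, by the authors' deposited tables. The naive factor Klf4 differed by -0.30 (SE 0.083, adjusted p 0.0264), from 0.56 to 0.26 in the authors' deposited tables. Eomes, a mesendoderm marker, differed by 0.89 (SE 0.25, adjusted p 0.0326), from -0.94 to -0.056 in the authors' deposited tables.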

How the results depend on the processing

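The calls of the 9 genes depended on the threshold asked for. With changes of at least 2-fold, and likewise when testing for changes beyond 1.2-fold, 2 of the genes were called in control and 2 in paused cells, Fgf5 and Pou3f1, against 6 and 7. Scaling the statistic to its middle spread gave 1 and 0. An adjusted p under 0.01 left Otx2 and Foxd3 uncalled in paused cells, and the minimum on abundance does not include Fgf5. With equal summed counts, which assumes 4 wild-type and 8 knockout libraries, Pou5f1 was no longer called in control cells and Foxd3 was, at 0.36. Only equal summed counts alters the log2 changes themselves, so in the other alternatives no direction could turn. With equal summed counts the direction of each knockout change was kept, but the difference of Utf1 between conditions turned from 0.0021 to -0.018. No alternative called a difference for any of the 9 genes. Only equal summed counts and the minimum on abundance could have added such a call, since the others are stricter than the main test.

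Over all genes, the calls in control and paused cells went from 8189 and 8504 to 1380 and 1418 at 2-fold, 2090 and 2122 against 1.2-fold, and 293 and 450 with the scaled statistic. Calls for the difference went from 275 to 102 at an adjusted p under 0.01, 28 at 2-fold, 2 against 1.2-fold and 35 with the scaled statistic, and equal summed counts moved the share higher in paused cells from 49.8% to 35.9%. The cause was not tested beyond the construction of these alternatives. No paired analysis was possible because the tables hold no values for single libraries, and for the same reason no library could be left out. The depth behind the low counts of Fgf5 is unknown.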
